A study of Mus musculus with 7 samples.

Results

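The heat shock chaperones and detoxification enzymes described here are 6 genes that the authors listed as differing between 2 sorted populations of mouse mammary gland cells. They are the chaperone genes Hspa8, Hspa1a, Hspa1b and Dnajb1 and the redox enzyme genes Nqo1 and Gsta4. Every probe set of the authors' longest list whose gene number or description names one of them was taken, which gave 7 of 1632 listed probe sets and of the 45101 on the array. Each gene has 1 listed probe set of its own, and 1 further probe set is assigned to both Hspa1a and Hspa1b. Other probe sets for these genes may be among the 43405 that are unnamed here.

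Mammary gland cells were stained with the DNA dye Hoechst and sorted by their blue and red fluorescence. The side population (SP) holds the cells with little dye, a phenotype that dye-exporting pumps give and that is used to enrich stem-like cells, and the non-side population (NSP) holds stained cells of the same gland. RNA of each sort went through 2 rounds of amplification and onto 1 Affymetrix mouse expression array, with 3 SP arrays, 3 NSP arrays and 1 array of a commercial universal mouse reference RNA (Stratagene) used here. The study states 4 replicates of each population, 2 chips removed and 2 reference chips. The labels name no treatment of either population. Strain, age, reproductive state and whether separate animals gave the samples are not given in the sources used here, so p-values measure a spread between samples that may be partly technical. Whether the reference RNA was amplified like the sorted samples is also not given.

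Chaperones of the HSP70 family bind exposed stretches of unfolded protein and release them in a cycle driven by ATP. Co-chaperones with a J domain, the HSP40 proteins, bring clients to HSP70 and speed up that cycle. Hspa8 encodes HSC70, the family member made in unstressed cells, while Hspa1a and Hspa1b encode the inducible HSP70 and Dnajb1 an inducible HSP40, all switched on in stressed cells by the heat shock factor HSF1, which binds heat shock elements in promoters. Nqo1 encodes a quinone reductase and is a textbook target of NRF2, the regulator of antioxidant genes, which acts through antioxidant response elements. Gsta4 encodes a glutathione transferase that conjugates 4-hydroxynonenal, a product of lipid peroxidation. Dissociating a tissue and sorting its cells is known to induce stress genes, HSP70 and immediate early genes among them.

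The genes lie on 3 mouse chromosomes, with positions given for the assembly GRCm38.p6. Hspa1a (chr17:34969359-34972156) and Hspa1b (chr17:34956429-34959238) are neighbours, Hspa8 (chr9:40801276-40805202) and Gsta4 (chr9:78191966-78209349) are on chromosome 9, and Dnajb1 (chr8:83608175-83612653) and Nqo1 (chr8:107388225-107403205) are on chromosome 8. The 250 bases before the start of 3 chaperone genes are printed 5′ to 3′ on the strand of the gene, from RefSeq, because the genes are known as targets of one factor and because the Hspa1a and Hspa1b copies are hard to tell apart. They are chr17:34972157-34972406 (minus strand), chr17:34959239-34959488 (minus strand) and chr8:83607925-83608174 (plus strand). Capitals mark a heat shock element core, GAANNTTC or TTCNNGAA, or an antioxidant response element core, TGACNNNGC on either strand.
Hspa1a: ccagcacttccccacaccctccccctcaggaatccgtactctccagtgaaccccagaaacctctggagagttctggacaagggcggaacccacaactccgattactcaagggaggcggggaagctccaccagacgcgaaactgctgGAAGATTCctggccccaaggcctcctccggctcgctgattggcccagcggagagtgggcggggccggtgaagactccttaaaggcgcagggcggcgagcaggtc
Hspa1b: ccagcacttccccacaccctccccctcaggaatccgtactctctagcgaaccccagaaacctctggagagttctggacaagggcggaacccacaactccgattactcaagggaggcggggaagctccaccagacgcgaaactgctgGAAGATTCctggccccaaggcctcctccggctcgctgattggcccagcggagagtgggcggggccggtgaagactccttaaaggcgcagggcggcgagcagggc
Dnajb1: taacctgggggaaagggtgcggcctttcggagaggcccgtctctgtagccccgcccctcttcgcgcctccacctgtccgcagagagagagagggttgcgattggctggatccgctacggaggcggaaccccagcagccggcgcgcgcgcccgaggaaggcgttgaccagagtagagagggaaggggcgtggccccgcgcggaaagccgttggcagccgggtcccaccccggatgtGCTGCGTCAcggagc

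The Hspa1a and Hspa1b stretches were the same at 247 of 250 positions (98.8%). They differed by C44T, T47C and T249G, with the base of Hspa1a first and positions counted from 1 at the 5′ end. Each held 1 GAANNTTC core, GAAGATTC, which began 104 bases before the start. GAANNTTC occurred in 6.69% of 32851 promoters of the same length, TTCNNGAA in 7.17% and at least 1 of them in 12.8%. The Dnajb1 stretch held neither heat shock core in these letters and 1 TGACNNNGC match, on the opposite strand as GCTGCGTCA, 15 bases before the start, a match found in 10.2% of promoters. The same stretch of Nqo1 held no match to these 3 cores. Bases farther from the start were not searched, so an element there would be missed. No such stretch was given for Hspa8 and Gsta4 in the sources used here, so neither was searched.

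On the arrays, all 7 probe sets had higher signals in SP than in NSP cells in each of the 3 pairs of samples with one number. That pattern was met by 16.3% of the 38115 probe sets tested, and the 7 were taken from a list the authors chose on these arrays by a paired comparison, so it is a description and no independent evidence. The fold between the populations was 2.46 for Hspa8, 1.59 for Dnajb1 and 1.29 to 1.34 for the Hspa1a and Hspa1b probe sets. It was 2.19 for Nqo1 and 2.25 for Gsta4. None of the 7, and 0 of all 38115 probe sets (0%), passed limma's adjusted p of 0.05 with the sample number as a block, while 3758 (9.86%) had an unadjusted p below 0.05. In such bulk samples fewer cells of a type and less RNA per cell cannot be told apart.

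**Figure D1:**
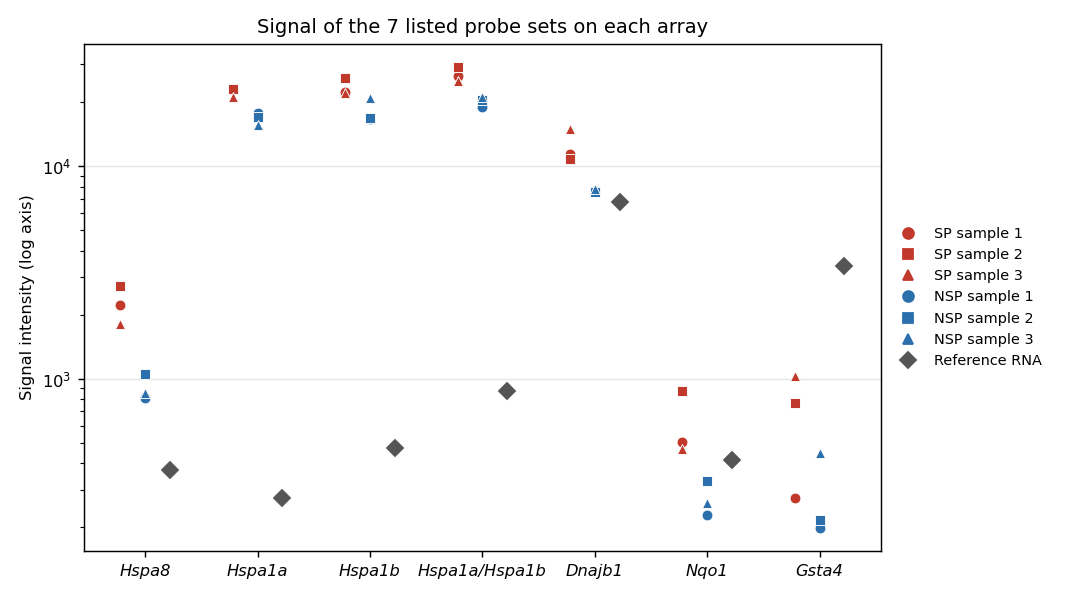
Deposited signal intensity (log axis) of the 7 listed probe sets on each array, with 1 point per array, red for the 3 SP samples, blue for the 3 NSP samples and a grey diamond for the reference RNA. SP and NSP points overlap for Gsta4 and for no other probe set, and the reference lies far below the sorted cells for Hspa1a and Hspa1b and above them for Gsta4.

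Hspa8 gave signals of 2209.5, 2724.9 and 1795.8 in SP samples 1, 2 and 3 and of 806.9, 1045.6 and 856.2 in NSP samples 1, 2 and 3. The lowest SP sample was above the highest NSP sample, and the means were 2243 ± 465 and 903 ± 126 (SD, n = 3 each). The difference was 1.30 ± 0.17 on the log2 scale (SP minus NSP ± SE), with a limma adjusted p of 0.376. Within the pairs it was 1.45, 1.38 and 1.07, so the 3 pairs lay close together beside its size. The difference in the authors' deposited table, from dChip values, was smaller at 0.88 on the log2 scale. All these values come from the 1 listed probe set of Hspa8, and which of its transcripts that probe set reads was not checked.

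The probe set of Hspa1a gave 23059.6, 23000.3 and 21092.3 in SP and 17697.3, 16940.2 and 15618.4 in NSP samples 1 to 3. The groups did not overlap, and the log2 differences of the 3 pairs, 0.38, 0.44 and 0.43, had an SD of 0.032. The fitted difference was 0.42 ± 0.15 (limma adjusted p = 0.514). In this probe set the difference was thus small and the pairs were nearly equal.

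The probe set of Hspa1b gave 22182.8, 25875.6 and 22012.0 in SP and 16630.7, 16838.0 and 20916.1 in NSP samples 1 to 3. NSP sample 3 stood above the other NSP samples and only just below the lowest SP sample. The pairs therefore differed by 0.42, 0.62 and 0.074 on the log2 scale, and the fit gave 0.37 ± 0.19 (limma adjusted p = 0.605), or 0.24 without pair 2. The probe set assigned to both genes gave 26617.2, 29183.3 and 25186.7 against 18911.1, 20505.8 and 21192.8, with no overlap and a log2 difference of 0.42 ± 0.16 (limma adjusted p = 0.539). Its Affymetrix suffix marks probes that may bind other transcripts, and with near-identical copies the 3 probe sets cannot be credited to one gene with certainty. The authors' deposited table gives log2 differences of 0.24, 0.34 and 0.23 for the Hspa1a, Hspa1b and shared probe sets.

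Dnajb1 gave 11332.3, 10831.6 and 14925.5 in SP and 7659.8, 7560.7 and 7802.3 in NSP samples 1 to 3. The NSP samples were almost level, at 7674 ± 121, while SP sample 3 stood above the other SP samples, which gave 12363 ± 2233 (SD, n = 3 each). The log2 difference was 0.67 ± 0.18 (limma adjusted p = 0.445), with 0.57, 0.52 and 0.94 in the pairs. The authors' deposited table gives 0.65 for it.

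Of the redox enzymes, Nqo1 gave 503.1, 869.0 and 465.8 in SP and 227.1, 328.6 and 259.6 in NSP samples 1 to 3. The groups did not overlap, and sample 2 was the highest of both. The log2 difference was 1.13 ± 0.19 (limma adjusted p = 0.387), from 1.15, 1.40 and 0.84 in the pairs, and 0.98 in the authors' deposited table.

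Gsta4 gave 274.3, 767.8 and 1026.1 in SP and 198.4, 215.2 and 444.9 in NSP samples 1 to 3. SP sample 1 lay below NSP sample 3, so the groups overlapped, with means of 689 ± 382 and 286 ± 138 (SD, n = 3 each). The pairs differed by 0.47, 1.84 and 1.21 on the log2 scale, the widest spread of the 7 probe sets (SD 0.68), and the fit gave 1.17 ± 0.33 (limma adjusted p = 0.451). Its p-value in the authors' deposited table, 0.0494, lay just inside their limit of 0.05, and their log2 difference was 1.02.

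**Figure D2:**
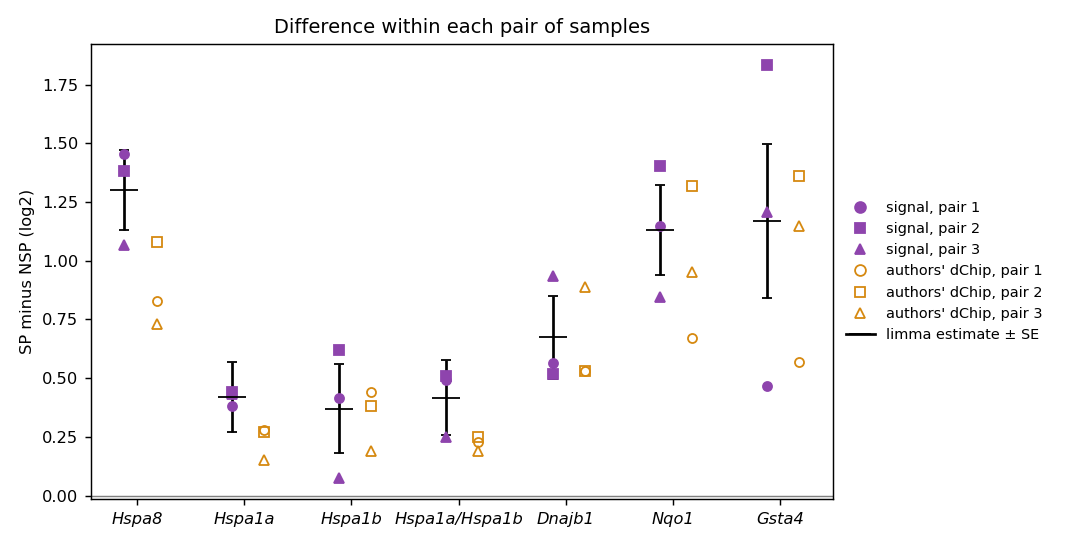
SP minus NSP difference (log2) of each probe set in the 3 pairs of samples, filled for the deposited signals and open for the dChip values of the authors' deposited table, with the limma estimate ± SE in black. All points lie above 0, the Hspa1a pairs from signals lie within 0.38 to 0.44, and the Gsta4 pairs run from 0.47 to 1.84.

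Groups without overlap, with every SP array above every NSP array, were found in 6 of the 7 probe sets, Gsta4 being the other one, and in 6.74% of all probe sets tested. With an intensity trend in the variance prior and the block kept, limma called 6 of the 7, all but Hspa1b (adjusted p = 0.0736), beside 2.47% of all probe sets called in either direction and 1.16% called higher in SP. The adjusted p-values in that fit were 0.000194 for Hspa8, 0.00268 for Dnajb1, 0.00635 for Hspa1a, 0.0124 for the shared probe set, 0.00851 for Nqo1 and 0.0295 for Gsta4. The trend without the block called 2, Hspa8 and Dnajb1, beside 0.352% of all probe sets called higher in SP. The 7 came from a list chosen on these arrays by a paired p-value, while the shares are of all probe sets tested. These counts are therefore descriptions and no independent evidence. All 7 were called present on 100 percent of the SP and NSP arrays in the authors' deposited table. Their next list, with a minimum difference of 0.4, held Hspa8, Dnajb1, Nqo1 and Gsta4, the list of 335 held Hspa8, Nqo1 and Gsta4, and the list of 90 held none of the 7.

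By role, the median log2 difference was 0.55 over the 4 chaperone genes and 1.15 over the 2 redox genes, with the median of all probe sets tested at -0.0080. The chaperone median was 0.49, 0.57 and 0.68 in the 3 pairs, and the redox median was 0.81, 1.62 and 1.02. Listed probe sets that were higher in SP in the authors' table had a median of 0.43. The difference between both roles was not tested, and Hspa8 with its 1.30 lay above both redox genes.

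The reference RNA played no part in the authors' comparison of SP with NSP cells. It stands on 1 array, so its values are given with no test. Hspa8, Hspa1a and Hspa1b had lower signals in the reference than in any sorted sample, and for Dnajb1 the reference lay only just below the NSP samples. For Nqo1 it lay between both populations, and for Gsta4 it was the highest array. The reference was below every sorted array for 5 of the 7 probe sets, those of the chaperones, and for 23.9% of all probe sets tested. It was above every sorted array for 1 of the 7 and for 26.7% of all.

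For Hspa1a the reference array gave 273.8, and the sorted samples were 57.0 to 84.2 times as high. Averaged over the 6 sorted arrays, the log2 difference was 6.14, and 21 of the 38115 probe sets tested, this one included, had a difference that high. The sorted samples were 35.4 to 55.1 times the reference value of 469.6 for Hspa1b, and 21.7 to 33.4 times the value of 873.1 for the shared probe set. Both populations took part in this, since the NSP samples alone were 57.0 to 64.6 times the reference for Hspa1a. For the inducible HSP70 genes the log2 distance of the sorted cells from the reference, 6.14 and 5.45, thus stood beside 0.42 and 0.37 between SP and NSP.

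Hspa8 gave 373.3 in the reference, with NSP samples 2.16 to 2.80 times and SP samples 4.81 to 7.30 times that value. Dnajb1 gave 6743.0, with NSP samples 1.12 to 1.16 times and SP samples 1.61 to 2.21 times that value. For Dnajb1 the NSP cells thus lay near the reference, and the SP cells stood apart from both.

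Nqo1 gave 414.7 in the reference, below all 3 SP samples, the lowest of which was 1.12 times as high, and above all 3 NSP samples. Gsta4 gave 3395.9, which was 3.31 times the highest sorted sample and 17.1 times the lowest. Its log2 difference from the reference was -3.09, with 223 probe sets at least as far below. The order of levels was thus SP, NSP and reference for the 4 chaperone genes, SP, reference and NSP for Nqo1, and reference, SP and NSP for Gsta4, whose SP and NSP samples overlapped.

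Every sorted array was at least 2-fold above the reference for 4 of the 7 probe sets, those of Hspa8, Hspa1a and Hspa1b, and for 4.79% of all probe sets tested. It was at least 2-fold below for Gsta4 and for 4.37% of all. A universal reference pools many cell sources, so the cells and their handling both differ from the sorted samples and cannot be told apart here.

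**Figure D3:**
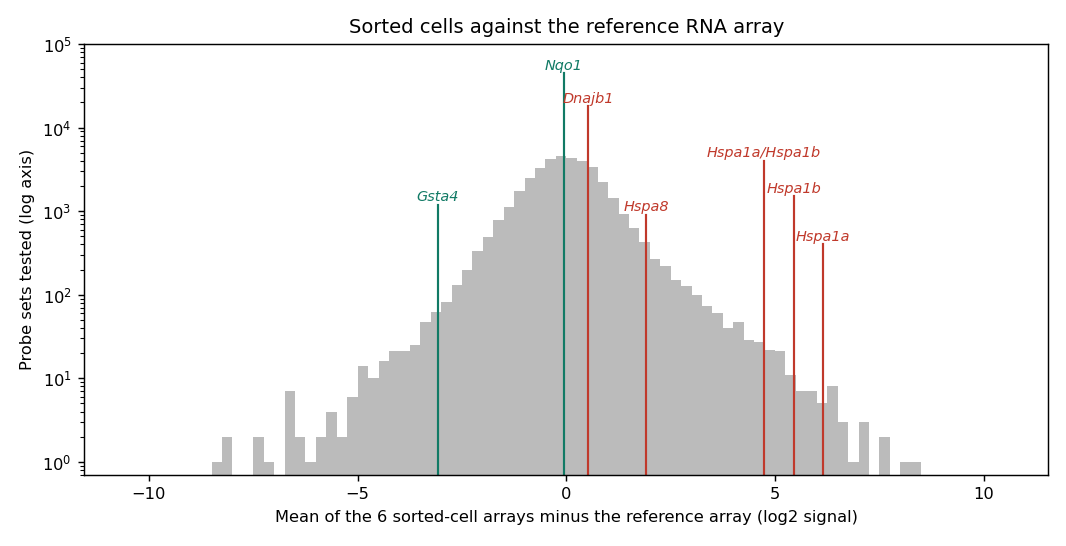
Histogram of the difference between the mean of the 6 sorted-cell arrays and the reference array (log2 signal) over the 38115 probe sets tested, with the count on a log axis. Lines mark chaperone probe sets (red) and redox probe sets (green), whose heights carry no value. Hspa1a lies at 6.14, Hspa1b at 5.45, Hspa8 at 1.92 and Gsta4 at -3.09.

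The wider chaperone network was read from lists of HSP70 family members, their co-chaperones, HSP90 and its partners, and small heat shock proteins with chaperonins. A gene could be named only where the authors had listed it as differing, so directions among named genes are not independent evidence. With the 4 members left out, the co-chaperone list of 38 genes had 8 named genes, 7 higher and 1 lower in SP. None of them passed the main test. Dnaja4, a J-domain partner of HSP70, gave 766.0, 1034.2 and 1030.9 in SP and 455.1, 571.1 and 645.3 in NSP, without overlap. Its log2 difference was 0.76 ± 0.15 (limma adjusted p = 0.4003), and it was the 1 co-chaperone beside Dnajb1 that limma called with the block and the trend (adjusted p = 0.0108). Bag3, a nucleotide exchange factor that HSF1 also induces, differed by 0.36 ± 0.17, the endoplasmic reticulum protein gene Dnajc1 by 0.37 ± 0.18 and the histone co-chaperone gene Dnajc9 by 0.32 ± 0.17 on the log2 scale, none of them called by either fit.

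The remaining chaperone lists held few named genes. The HSP70 relative Hspa4l differed by -0.16 ± 0.21, and both HSP90 partners named, Fkbp4 and Ptges3, were lower in SP with log2 differences of -0.20 ± 0.16 and -0.16 ± 0.21. Both small heat shock protein genes named, Hspb8 and Cryab, had log2 differences of 0.27 ± 0.15 and 0.22 ± 0.15. Trib3, a stress gene of the endoplasmic reticulum and the 1 named of 23 there, differed by -0.35 ± 0.19, and none of the 5 heat shock factor genes was named. None of these was called by limma with the block, with or without the trend.

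Over the 4 chaperone lists, 13 of the named genes were no members, 9 of them higher and 4 lower in SP, with a median log2 difference of 0.27. Against the reference RNA, 2 of the 13 were at least 2-fold higher on every sorted array. These were Cryab, a small heat shock protein, at 5.64 to 9.07 times and Dnaja4 at 4.41 to 10.02 times the reference value. None was at least 2-fold lower on every sorted array.

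The redox lists held named genes on both sides of 0. They too could be named only where the authors had listed them, with 751 of 1632 listed probe sets higher in SP. Over NRF2 and its partners, quinone and carbonyl reduction, glutathione transferases, and glutathione and thioredoxin metabolism with the conjugating enzymes, 12 named genes were no members, 4 higher and 8 lower in SP, with a median log2 difference of -0.18. The single one limma called, with the block and the trend, was lower in SP. It was Gsr, the glutathione reductase, with 1692.5, 2290.7 and 2326.1 in SP against 2661.0, 4291.4 and 3183.2 in NSP samples and no overlap. Its log2 difference was -0.67 ± 0.18, with a limma adjusted p of 0.445 in the main fit and 0.00584 with the trend.

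Srxn1, the sulfiredoxin that restores peroxiredoxins and another known NRF2 target, had a log2 difference of 0.46 ± 0.15, Blvrb, a biliverdin reductase, of 0.35 ± 0.15, and Taldo1, a transaldolase of the pentose phosphate pathway, of -0.22 ± 0.15. The NRF2 relative Nfe2l3 was lower in SP, with 160.0, 111.6 and 174.7 against 280.5, 334.6 and 340.1, and its log2 difference of -1.12 ± 0.23 had an adjusted p of 0.0572 in limma with the trend. Akr1b10, an aldo-keto reductase, had a log2 difference of -0.50 ± 0.43, which was 0.0062 without pair 2, and Aldh3a2, a fatty aldehyde dehydrogenase, of -0.29 ± 0.20, none of these called in either fit.

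Of the other transferases named beside Gsta4, Gsto1 differed by 0.24 ± 0.17 and Mgst3 by -0.35 ± 0.28 on the log2 scale. Mgst3 has the opposite sign in the authors' deposited table, where its log2 difference is 0.45. Tiparp, a target of the aryl hydrocarbon receptor, which also regulates Nqo1, had a log2 difference of 0.52 ± 0.18 without overlap and was not called in either fit. None of the 12 redox genes was at least 2-fold above or below the reference on every sorted array.

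**Figure D4:**
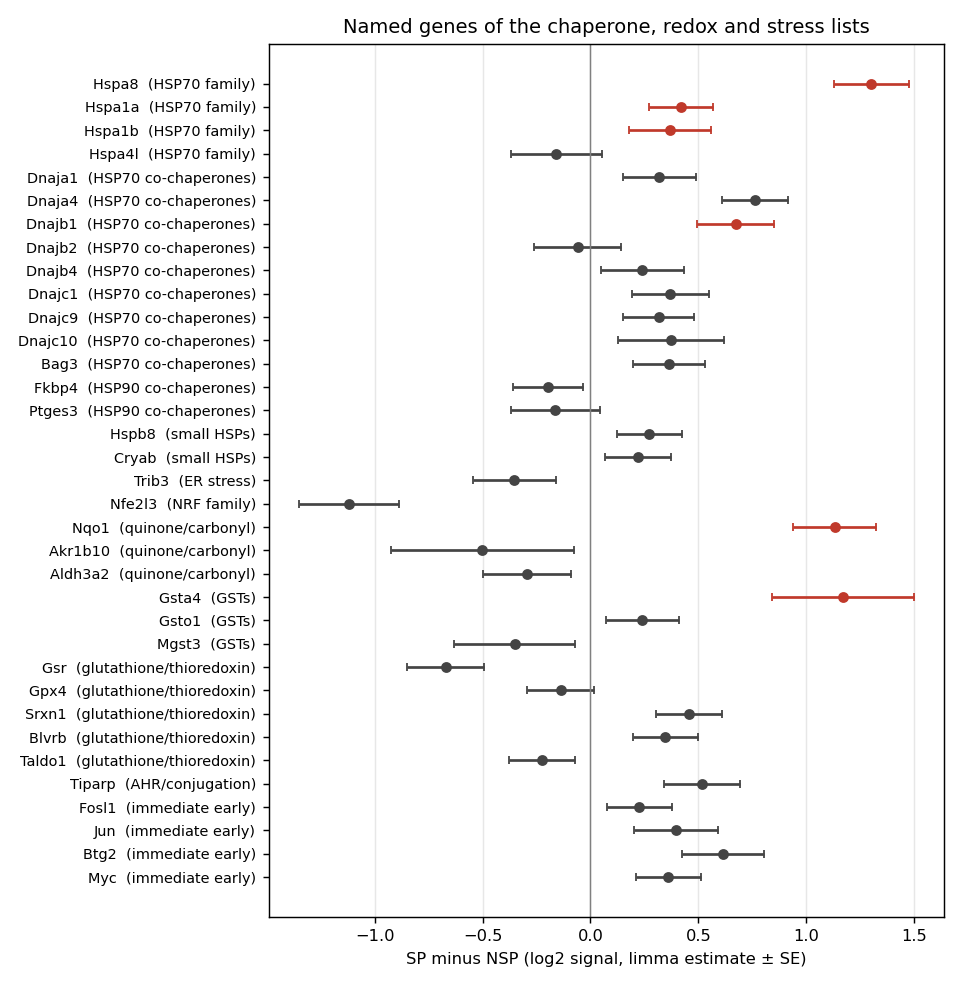
SP minus NSP difference (log2 signal, limma estimate ± SE) of the named genes reported of the chaperone, redox, endoplasmic reticulum stress and immediate early lists, with the 6 member genes in red. The members lie between 0.37 and 1.30, while the other redox genes lie on both sides of 0.

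Immediate early genes, which many stimuli induce within minutes and which dissociation is known to switch on, had 4 named of 22, all 4 higher in SP. The antiproliferative gene Btg2 differed by 0.62 ± 0.19 on the log2 scale (limma adjusted p = 0.479), without overlap, and was the 1 called with the trend (adjusted p = 0.0393). The transcription factor genes Jun, Myc and Fosl1 differed by 0.39 ± 0.20, 0.36 ± 0.15 and 0.23 ± 0.15. The part that handling of the cells had in the chaperone values was not tested.

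Cell type markers and the state of the RNA moved with the sort too. All 12 named of 16 endothelial markers were higher in SP, with a summed signal of 11731.9 to 12824.6 in SP and 3827.1 to 4221.2 in NSP arrays (led by Aplnr and Eng). Basal markers (6 of 9 named, led by Acta2 and Krt14) summed to 18578.5 to 23125.0 in SP and 24236.6 to 28606.0 in NSP, and luminal ones (5 of 12, Krt8 and Cdh1) to 9537.5 to 17174.9 and 29874.1 to 35394.0. Leukocyte markers (5 of 10, Ctss and Laptm5) summed to 502.3 to 759.6 in SP and 3446.5 to 11174.4 in NSP, and stromal ones (4 of 8, Dcn and Pdgfra) to 16176.3 to 18548.0 and 8298.6 to 11003.9. The basal sum was mostly Acta2, with a log2 difference of -0.21 ± 0.15, while Krt14 differed by -1.49 ± 0.22. The stromal sum was mostly Dcn, with a log2 difference of 1.01 ± 0.20, while Pdgfra differed by 0.23 ± 0.15 with overlapping groups. Of the 5 named leukocyte markers, 4 were lower in SP and 1 had a log2 difference of 0.014 ± 0.57. The median log2 difference of the named markers was 1.48 for the endothelial, -1.55 for the basal, -1.55 for the luminal, -2.72 for the leukocyte and 0.64 for the stromal list. None of the 6 muscle markers was named. No marker passed limma with the block. With the block and the trend it called 12 endothelial and 1 stromal marker higher in SP. It called 4 basal, 5 luminal and 3 leukocyte markers lower in SP. Of all 38115 probe sets tested, that fit called 443 (1.16%) higher and 499 lower in SP. A marker could be named only where the authors had listed it as differing on these arrays, so the counts are no independent evidence. Markers of mammary epithelium gave signals in both populations. The lowest signal of a named marker was that of Ptprc of leukocytes, 2.1 in SP sample 3, below the floor of 17 set before log2. A low signal does not show that a marker was expressed. The part of these markers in the chaperone and redox values was not tested.

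The ratio of 3′ to 5′ control probe sets, which rises as amplified RNA gets shorter, was higher in SP than in NSP in all 3 pairs for both control genes. On the log2 scale it was 3.85 ± 0.50 in SP and 3.28 ± 0.80 in NSP for Actb, and 3.65 ± 0.66 and 2.87 ± 0.64 for Gapdh (SD, n = 3 each). The reference array gave 3.48 and 2.18. Array medians ran from 79.3 to 97.2. The part of RNA length in the members' values was not tested.

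For 4 members, the named genes with the most similar profile over the 6 sorted arrays were found by the root mean square distance of centred log2 signals, over 1311 other named genes that share the same arrays and the same list. Nearest to Hspa8 were the mitotic kinase gene Mastl (0.145), Cd34 (0.154), a surface protein of endothelial and progenitor cells, and the efflux pump gene Abcb1a (0.165), against a median distance of 0.777. Nqo1 had Jam2 (0.154), a junction protein of endothelium, Hspa8 (0.172) and the synaptotagmin gene Syt7 (0.181) nearest, against a median of 0.736. Hspa8 thus ranked 2 of 1311 for Nqo1, and Nqo1 ranked 5 for Hspa8, so their listed probe sets, 1 for each gene, were near each other across these 6 arrays. Centring leaves the SP minus NSP difference in the distance, and the list was chosen on that difference. Of its 1632 probe sets, 881 were higher in NSP, which raises the median distance from a gene higher in SP. The nearness of both genes is therefore no independent evidence.

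Dnajb1 lay nearest to Btg2 (0.0443), followed by the phosphodiesterase gene Pde4b (0.0858) and Zmym1 (0.0938), against a median of 0.483. Among the members, Hspa1a was its closest, at 0.234 and rank 83, while Hspa8 ranked 574. Gsta4 had no neighbour as close, with Prg4, the lubricin gene, at 0.289, the growth factor binding protein gene Igfbp5 at 0.437 and Eml1 at 0.458, against a median of 0.948. These distances also hold the SP minus NSP difference on which the list was chosen. They describe likeness in 6 arrays and were not tested.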

How the data were processed

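Signal intensities of 45101 probe sets were taken as deposited, MAS5 values per the submitters' processing notes, with no version given in the sources used here. The authors' deposited tables hold dChip values read as log2, since the highest, 14.33, would exceed the scanner's range as a natural log (1672780, against 20595 as log2), although the folds in the list titles match natural logs. The authors computed the percent of arrays with a present call, a paired test's statistic (a score) and its p-value, per the file headers. From these they listed probe sets by a paired p-value of at most 0.05 and a minimum difference of 0.185.

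Signals below 17, the 20th percentile of all values on the 6 sorted arrays, were set to 17 before log2. The 38115 probe sets above it on at least 3 arrays were tested with limma 3.58.1 in R 4.3.3 (two-sided, sample number as a block, Benjamini-Hochberg over all, threshold 0.05), without 64 control probe sets. The step was tested on simulated data with log2 differences of 3 up or down and a capped and reduced spread. Those differences are larger than the members', so the simulation cannot tell how well differences of their size are found. The numbers pair the samples because the authors' test was paired and sample titles place 2 of the 3 pairs on one day each. Deviations within pairs correlated at 0.0387, 0.0408 and 0.12, each sample best with its own number. The number of arrays limits the precision.

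Names came from the lists through a GRCm38.p6 gene table, by gene number for 1403 probe sets, a number in the description for 51 and a symbol for 48, with 130 unnamed. That gave 1312 genes with 1 symbol. The probe set of highest mean stood for a gene. Members and lists were chosen with earlier results of these data known. Named were the members, up to 4 genes of smallest p per pathway list, the 2 brightest per marker list and the 3 nearest genes of 4 members. Ptprc, and Dnajb2 in the closing section, were named after their values were seen. One gene of the redox lists that counts among the named genes is not reported here. Promoters came from RefSeq (GRCm38.p6). Alternatives covered block, normalization, floor, filter, variance prior, weights, test, dChip values and leaving out each pair. Centred values for nearest genes and a quantile version of the 3′/5′ ratio were added after seeing the data.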

Additional observations from a re-analysis of the deposited data

How the results depend on the processing

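The count of probe sets past an adjusted p of 0.05 depended on the variance model. It was 0 with the sample numbers as a block, 6 with no replicate block (1 higher and 5 lower in SP), 942 with an intensity trend and the block, and 381 with the trend and no block. Of the 7 member probe sets, 6 passed with the trend and the block and 2 with the trend alone. Counts at an unadjusted p below 0.05 were 3758 in the main fit, 3324 without the block and 3265 with the methods' t-test, which left 0 after Benjamini-Hochberg. Quantile normalization, centring, other floors, an offset, other filters, array weights, a threshold of 0.1 and leaving out each pair (0 to 0) also gave 0. All 7 member probe sets stayed higher in SP in every alternative run. Each was higher in SP in all 3 pairs, so leaving out a pair could not reverse it. The block, the trend and the t-test do not change the estimate. The members were listed for their difference in the dChip values, so their direction there is no independent evidence. The dChip values of the authors' deposited table gave smaller log2 differences for Hspa1a (0.24) and the shared probe set (0.23). Without pair 2, the log2 difference of Hspa1b was 0.24, and 3 pathway genes changed sign. With each pair left out in turn, Hspa4l ran from -0.32 to 0.025, Dnajb2 from -0.24 to 0.070 and Akr1b10 from -0.91 to 0.0062, and the cause was not tested. The role medians and the differences from the reference moved by less than the spread between samples in each alternative run. Of the other comparisons of single genes, ratios and distances across alternatives, 697 kept direction and side of the threshold and 26 passed the threshold only in an alternative. Part of the 697 have a direction that the setting could not change.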
